A study of Mus musculus with 8 samples.

Results

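The mRNA of 6 STAT genes and 3 genes of the SOCS family was followed in regulatory T cells (Tregs) and conventional CD4+ T cells (Tconvs) of mice with and without a *Cd70* transgene. The members were *Stat2*, *Stat3*, *Stat4*, *Stat5a*, *Stat5b*, *Stat6*, *Socs1*, *Socs3* and *Cish*. They were chosen by name, as the rows of the deposited table that carry these symbols. All 9 were found, each on 1 of the 52636 rows, and all 9 were among the 12816 genes tested, those that reached 60 in 2 or more of the 8 libraries.

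STAT proteins carry the signal of a cytokine receptor to the nucleus. A cytokine brings its receptor chains together, the JAK kinases bound to them phosphorylate a STAT, and the STAT then pairs, enters the nucleus and switches genes on. SOCS1, SOCS3 and CIS (encoded by *Cish*) are made in answer to STATs and act back on the receptor or its kinase, so that their mRNA is a common readout of recent cytokine signalling. In CD4+ T cells, STAT4 serves IL-12, STAT6 serves IL-4, STAT3 serves IL-6, IL-10 and IL-21, STAT5 serves IL-2 and IL-7, and STAT2 serves type I interferon together with IRF9. In Tregs, STAT5 downstream of the IL-2 receptor is known to sustain Foxp3.

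Spleen CD4+ T cells of young adult mice were sorted by a Foxp3 GFP reporter into Foxp3+ Tregs and Foxp3- Tconvs. By the study's methods, controls were CD27+/- mice and CD70Tg mice were CD11c-*Cd70*tg;CD27+/-, so that all 4 groups would lack 1 copy of *Cd27*, while the sample labels give the controls the genotype WT and the table names them KO. Only the CD70Tg groups carry the transgene for CD70, the ligand of CD27, driven by the CD11c promoter, which is used by dendritic cells. Each of the 4 groups had 2 libraries, and the sources do not say whether they came from separate mice, so that p-values measure the spread between these libraries only. CD25+ cells were depleted before the sort of Tconvs and not before that of Tregs, and this cannot be told apart from the subset in any comparison of Tregs with Tconvs. RNA came from sorted cells in bulk, in which fewer cells making a gene and less of its RNA per cell cannot be told apart.

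Values are read counts per gene scaled to 20 M reads per library. Before scaling, the libraries held between 1.91 M and 33.1 M reads on genes, as recovered from the steps between low values, and the numbers of the deepest library and of the first control Tconv library are less certain. Each member value rested on at least 194 reads. *Foxp3* lay between 19769 and 21367 in the Treg libraries and between 1039 and 1497 in the Tconv libraries, *Cd4* was at or above 16100 in every library, and *Cd70* was at most 9 in controls and 11 to 44 in CD70Tg libraries. *Cd27* lay between 2980 and 3359 in Tconvs and between 5173 and 6123 in Tregs. Markers of other cells were read as summed levels. In Tconvs the NK cell markers (4 genes, 1 of 1 tested fell) went from 407 to 430 in controls to 81 to 82 in CD70Tg. That sum was nearly all *Klrb1c*, at 403 and 423 in controls and at 75 and 68 in CD70Tg. *Klra7* went from 2 and 7 to 6 and 11, and *Ncr1* and *Klra8* were at most 2. The CD8 markers (2 of 2 rose) went from 681 to 720 to between 1563 and 1590. In Tregs the NK and CD8 sums went from 36 to 64 to at most 11 (1 of 1 tested fell) and from 317 to 417 to between 631 and 660 (1 of 2 rose). The neutrophil markers (4 genes) went from 5 in both control Treg libraries to between 165 and 180 (1 of 1 tested rose), the erythroid markers (3 genes) from between 399 and 1056 to between 1622 and 2561 (2 of 2 tested rose), and in Tconvs none of these passed. The macrophage and dendritic cell markers (7 genes) lay between 1236 and 1692 in Tconvs (2 of 6 tested rose and 1 fell) and between 2833 and 3034 in Tregs (1 rose and 1 fell). The B cell markers (6 genes, 0 of 3 tested passed in CD70Tg against control in either subset) lay between 10034 and 12504 in Tconvs, and in Tregs went from between 37137 and 41505 in controls to between 49415 and 49570 in CD70Tg. *Ncr1*, *Klra8* and *Klra7* were at 0 in all 4 Treg libraries, and *Ncr1* in both control Tconv libraries. The part of these cells in the results was not tested.

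The promoters of the members were searched for the sites that STAT complexes are known to bind, since several members are STAT targets themselves. The 250 bases before each start were taken from the RefSeq promoter table (GRCm38.p6), which holds 12 starts for the 9 members. The motifs were TTCNNNGAA, the gamma-activated site, the same with 1 base more between TTC and GAA, a wider spacing that STAT6 also binds, and GAAA repeated after any 2 bases, the core of the interferon-stimulated response element bound by the STAT2 complex, each on both strands and with overlapping matches counted. Of the 12 promoters, 4 held a match. The matching stretches follow, with matches in capitals and each sequence written along the strand of its gene.
Socs1: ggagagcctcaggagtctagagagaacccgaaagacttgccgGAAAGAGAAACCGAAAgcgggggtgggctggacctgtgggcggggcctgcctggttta
Socs3: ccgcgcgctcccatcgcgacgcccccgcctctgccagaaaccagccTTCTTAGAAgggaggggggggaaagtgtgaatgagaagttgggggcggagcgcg
Stat2: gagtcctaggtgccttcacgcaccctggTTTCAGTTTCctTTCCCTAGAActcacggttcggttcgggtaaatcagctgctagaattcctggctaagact
Stat4: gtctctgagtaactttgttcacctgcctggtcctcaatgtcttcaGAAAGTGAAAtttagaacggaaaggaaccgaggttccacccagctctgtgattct

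The *Socs1* stretch (chr16:10785562-10785661, minus strand) lies upstream of the gene and holds GAAAGAGAAA and GAAACCGAAA, which overlap, 83 and 77 bases before the start. The *Socs3* stretch (chr11:117969467-117969566, minus strand) lies inside the annotated span of the gene but in no exon, and holds the gamma-activated site TTCTTAGAA 154 bases before the start. The *Stat2* stretch (chr10:128270248-128270347, plus strand) lies upstream of the gene and holds the interferon motif on the other strand, read here as TTTCAGTTTC, 222 bases before the start, and the wider motif TTCCCTAGAA at 210 bases. The *Stat4* stretch (chr1:52008098-52008197, plus strand) belongs to an inner start of the gene, overlaps no exon, and holds GAAAGTGAAA 97 bases before that start. Among all 32851 promoters in the table, 7.02% held TTCNNNGAA, 5.85% held the wider motif and 2.98% held the interferon motif. No match was found in the windows of *Cish*, *Stat3*, *Stat5a*, *Stat5b* and *Stat6*. The starts used for *Cish*, *Socs3*, *Stat2* and *Stat5b* and the inner start of *Stat4* do not open a transcript of the gene in GENCODE M21. That of *Cish*, at 107296659, lies inside the annotated span of the gene. Sequence outside these windows was not searched. A match is a description of the sequence, and binding was not measured here.

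In Tconvs of CD70Tg mice, 5 of the 9 members rose. These were *Stat2*, *Stat3*, *Socs1*, *Socs3* and *Cish*, by 1.39-fold to 2.17-fold, and 0 of 9 fell. Among all tested genes, 6.82% rose and 1.99% fell by the same test (limma on log2(value + 5), adjusted p under 0.05). Both CD70Tg libraries lay above both control libraries for 6 of 9 members, *Stat6* being the other one, against 23.7% of tested genes. The median log2 fold change was 0.47 over the members and 0.01 over all tested genes. With no filter on low values none of the 5 passed (limma adjusted p between 0.0517 and 0.225).

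**Figure D1:**
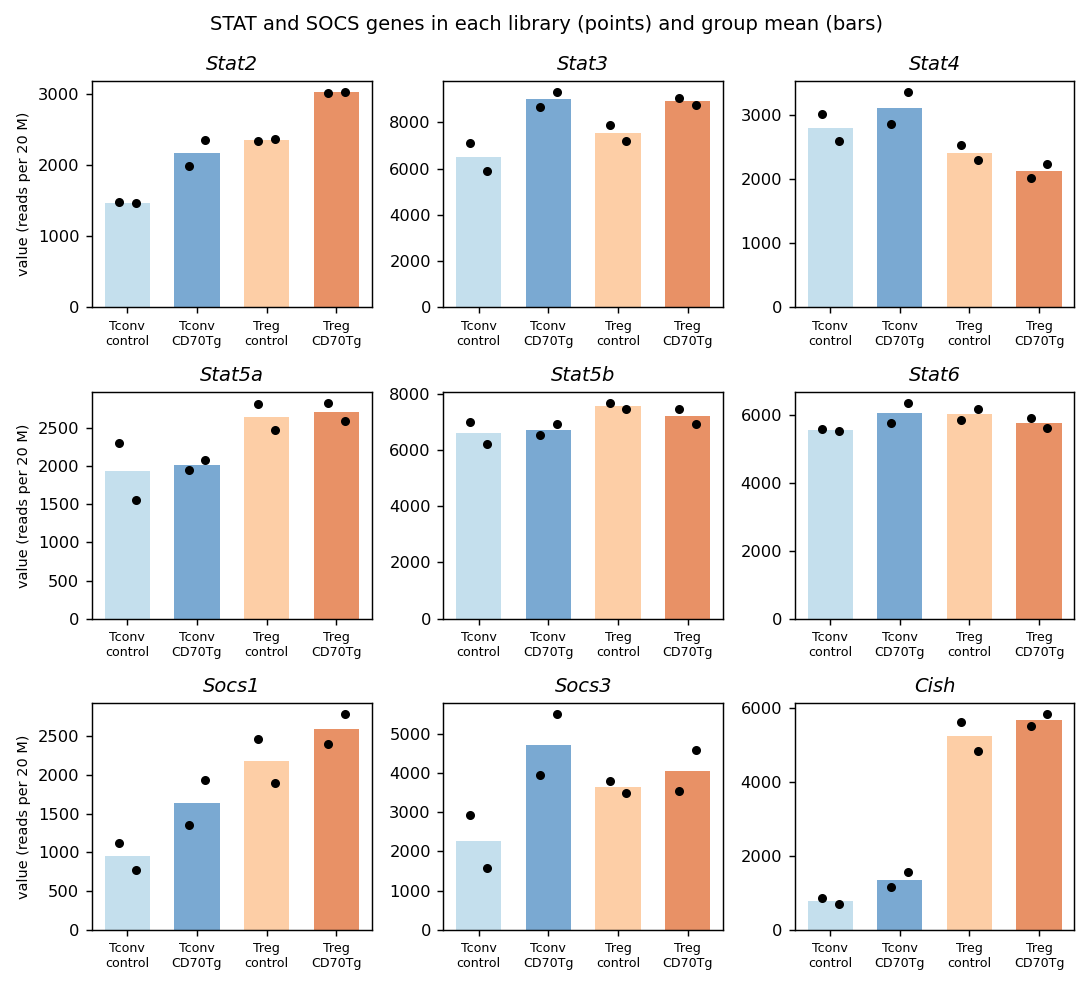
Values of the 9 members in each library (points) and group means (bars), in reads per 20 M, for control and CD70Tg Tconvs (blue) and Tregs (orange), each panel with its own axis from 0. *Cish* is set apart between the subsets, from 691 to 1559 in Tconvs and from 4852 to 5845 in Tregs, while *Stat5b* and *Stat6* lie near one level in all groups.

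Of the feedback genes, *Socs3* moved most in Tconvs. SOCS3 binds receptors that signal through gp130 and limits STAT3. Its values were 2936 and 1564 in control Tconvs and 3933 and 5497 in CD70Tg Tconvs, so that the groups did not overlap but the 2 control libraries differed by 1.88-fold. The fold change was 2.17 (95% confidence interval 1.57 to 2.99, limma adjusted p = 0.00289), and *Socs3* was the only member with a log2 fold change over 1, which 4.07% of tested genes passed. Without the second CD70Tg library the log2 fold change was 0.87 (limma adjusted p = 0.0761), and without the second control library it was 0.66 and still past the test.

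*Socs1* encodes an inhibitor of JAK kinases that limits interferon and IL-2 signals. It was at 1123 and 771 in control Tconvs and at 1352 and 1933 in CD70Tg Tconvs. The groups did not overlap, and the fold change was 1.73 (95% confidence interval 1.31 to 2.29, limma adjusted p = 0.0125). The call was lost without the second control library (log2 fold change 0.52, limma adjusted p = 0.166) and without the second CD70Tg library (0.54, limma adjusted p = 0.200).

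*Cish* encodes CIS, a target of STAT5 that dampens signals of the IL-2 and T cell receptors. Its values were 850 and 691 in control Tconvs and 1162 and 1559 in CD70Tg Tconvs, again with no overlap. It rose 1.75-fold (95% confidence interval 1.41 to 2.17, limma adjusted p = 0.00165), and passed the test whichever library was left out.

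*Stat2* and *Stat3* were the STAT genes that rose. *Stat2* was at 1473 and 1459 in control Tconvs and at 1983 and 2355 in CD70Tg Tconvs, 1.47-fold higher (95% confidence interval 1.24 to 1.75, limma adjusted p = 0.00544). *Stat3* was at 7102 and 5903 in controls and at 8676 and 9320 in CD70Tg, 1.39-fold higher (95% confidence interval 1.17 to 1.65, limma adjusted p = 0.0177). Neither pair of groups overlapped. Without the second CD70Tg library both calls were lost, at log2 fold changes of 0.43 for *Stat2* (limma adjusted p = 0.0640) and 0.42 for *Stat3* (limma adjusted p = 0.102). The *Stat3* call was also lost without the second control library (0.34, limma adjusted p = 0.209) and with the Tconv libraries alone (limma adjusted p = 0.0703).

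The other 4 STAT genes did not pass the test in Tconvs. *Stat4* was at 3017 and 2589 in controls and at 2864 and 3360 in CD70Tg, and *Stat5a* at 2310 and 1559 and at 1948 and 2086, with overlap in both. *Stat5b* was at 6977 and 6194 and at 6521 and 6910, and *Stat6* at 5565 and 5531 and at 5748 and 6343. Their 95% confidence intervals on the log2 scale were -0.12 to 0.42 for *Stat4*, -0.24 to 0.41 for *Stat5a*, -0.21 to 0.27 for *Stat5b* and -0.11 to 0.35 for *Stat6*, the highest upper limit being a 1.34-fold increase, for *Stat4*. STAT4 and STAT6 are known as the factors of Th1 and Th2 differentiation.

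**Figure D2:**
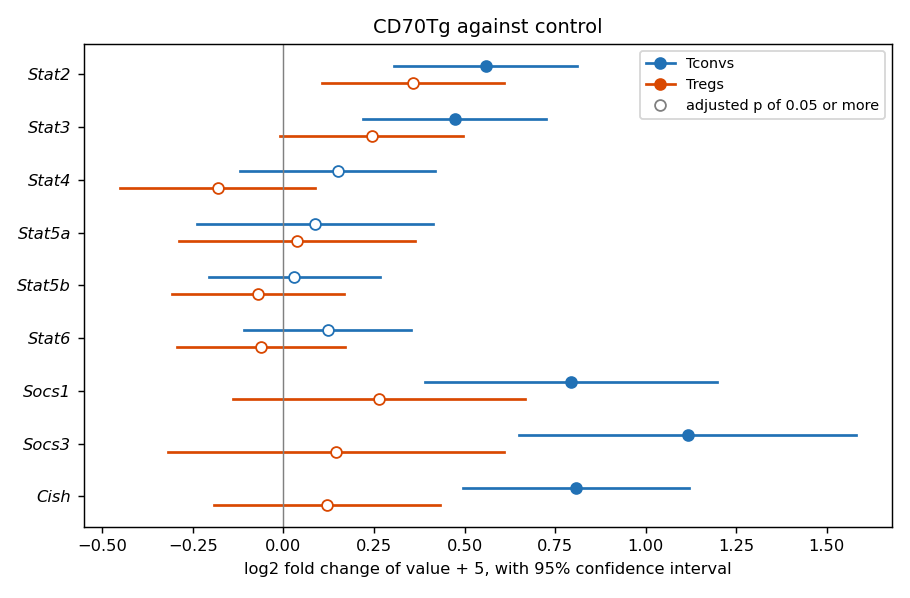
Log2 fold change of each member in CD70Tg against control, with 95% confidence intervals (lines), in Tconvs (blue) and Tregs (orange), open where the limma adjusted p was 0.05 or more. The 5 filled points are all in Tconvs, and *Socs3* at 1.12 is the only one over 1.

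In Tregs, 0 of 9 members passed the same test (limma), where 7.40% of tested genes did. At an unadjusted p under 0.05 there was 1, *Stat2*, against 21.6% of tested genes, and limma-voom on the recovered read numbers also gave 0. *Stat2* was at 2339 and 2365 in control Tregs and at 3010 and 3024 in CD70Tg Tregs. The 2 libraries differed by 1.01-fold in the control group and by less in the CD70Tg group, and the groups by 1.28-fold (95% confidence interval 1.08 to 1.53), with a limma adjusted p of 0.0797 in the model that shares its spread over all 4 groups. With the Treg libraries alone the limma adjusted p was 0.0145, and it was 0.0365 and 0.0371 without the first and the second CD70Tg Tconv library, 0.0217 with median-of-ratios factors and 0.0221 with upper-quartile factors. Over the 18 alternatives it ranged from 0.0145 to 0.366.

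The remaining Treg values lay close together. *Stat3* was at 7881 and 7190 in controls and at 9070 and 8760 in CD70Tg, with no overlap (log2 fold change 0.24, 95% confidence interval -0.01 to 0.50). *Stat4* was at 2529 and 2299 and at 2017 and 2241, both CD70Tg libraries below both controls (log2 fold change -0.18, 95% confidence interval -0.45 to 0.09). These made 2 of 9 members with both CD70Tg libraries above the controls, *Stat2* and *Stat3*, against 22.5% of tested genes, and 1 of 9 with both below, against 31.2%. *Stat5a* (2815 and 2474, then 2832 and 2589), *Stat5b* (7667 and 7444, then 7461 and 6933) and *Stat6* (5848 and 6178, then 5914 and 5606) overlapped between the groups.

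The feedback genes overlapped as well. *Cish* was at 5634 and 4852 in control and at 5528 and 5845 in CD70Tg Tregs, with a log2 fold change of 0.12 (95% confidence interval -0.19 to 0.43). *Socs1* was at 2456 and 1888 and at 2404 and 2784 (log2 fold change 0.26, 95% confidence interval -0.14 to 0.67). *Socs3* was at 3780 and 3494 and at 3532 and 4573 (log2 fold change 0.15, 95% confidence interval -0.32 to 0.61). These intervals leave room for increases of up to 1.35-fold, 1.59-fold and 1.53-fold.

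The response to the transgene was not shown to differ between the subsets for any member. In the test of the difference itself, 0 of 9 members passed (limma), against 1.02% of tested genes, and limma-voom gave 0 as well. At an unadjusted p under 0.05 there were 2, *Cish* and *Socs3*, against 10.7% of tested genes. The response of *Cish* was smaller in Tregs by 0.69 on the log2 scale (95% confidence interval of the difference -1.13 to -0.25, limma adjusted p = 0.163), and that of *Socs3* by 0.97 (-1.63 to -0.31, limma adjusted p = 0.200). Without the first CD70Tg Tconv library *Cish* passed (difference -0.90, limma adjusted p = 0.0202), and without the first control Tconv library *Socs3* passed (-1.42, limma adjusted p = 0.00268). For *Socs1* the difference was -0.53 (-1.10 to 0.04, limma adjusted p = 0.517).

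Between the subsets, *Cish* differed most. In control mice it was 6.78-fold higher in Tregs than in Tconvs (95% confidence interval 5.46 to 8.42, limma adjusted p = 6.98e-10), and in CD70Tg mice 4.21-fold (95% confidence interval 3.39 to 5.23, limma adjusted p = 2.75e-08). All 4 Treg libraries lay above all 4 Tconv libraries. The ratio of *Cish* to *Stat5b* within a library was 0.112 to 0.226 in Tconvs and 0.652 to 0.843 in Tregs, while *Stat5b* itself differed between the subsets by 1.15-fold in control mice and did not pass the test (limma adjusted p = 0.156).

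In control mice, 5 of 9 members were higher in Tregs, against 27.5% of tested genes. Beside *Cish* these were *Socs1* (2.31-fold, 95% confidence interval 1.75 to 3.05, limma adjusted p = 8.58e-05), *Stat2* (1.60-fold, 1.35 to 1.91, limma adjusted p = 0.000228), *Socs3* (1.69-fold, 1.23 to 2.34, limma adjusted p = 0.00993) and *Stat5a* (1.39-fold, 1.11 to 1.74, limma adjusted p = 0.0193). None was lower, against 18.4%. Of the B cell markers 2 of 3 tested were higher in Tregs of control mice and 3 of 3 in CD70Tg mice, and of the macrophage and dendritic cell markers 3 and 4 of 6, and their part in the differences between the subsets was not tested. For 8 of 9 members both Treg libraries lay above both Tconv libraries, against 42.7% of tested genes, and for *Stat4* both lay below, against 33.5% (log2 -0.21, limma adjusted p = 0.184, and 0.0323 with median-of-ratios factors). The calls of *Stat5a* and *Socs3* rested on single libraries. They were lost without the second control Tconv library (log2 0.19, limma adjusted p = 0.332, and log2 0.31, limma adjusted p = 0.202) and without the first control Treg library (0.38, limma adjusted p = 0.140, and 0.70, limma adjusted p = 0.0522).

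In CD70Tg mice, 4 of 9 members were higher in Tregs, against 22.6% of tested genes, and 1 of 9 was lower, against 20.1%. The higher ones were *Cish*, *Socs1* (1.60-fold, 95% confidence interval 1.21 to 2.11, limma adjusted p = 0.00922), *Stat2* (1.40-fold, 1.17 to 1.66, limma adjusted p = 0.00416) and *Stat5a* (1.34-fold, 1.07 to 1.68, limma adjusted p = 0.0356). *Stat4* was lower in Tregs, with values of 2017 and 2241 against 2864 and 3360 (log2 fold change -0.54, 95% confidence interval -0.81 to -0.28, limma adjusted p = 0.00279), and this held whichever library was left out. *Socs3*, which was higher in Tregs of control mice, was at 3532 and 4573 in Tregs and at 3933 and 5497 in Tconvs of CD70Tg mice, with a log2 fold change of -0.21 (-0.67 to 0.25). The *Socs1* call was lost without the first CD70Tg Tconv library (log2 0.42, limma adjusted p = 0.118) and without the second CD70Tg Treg library (0.57, limma adjusted p = 0.0802), and that of *Stat5a* without any 1 of the 4 CD70Tg libraries (limma adjusted p between 0.0607 and 0.189) and with limma-voom (0.0979).

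**Figure D3:**
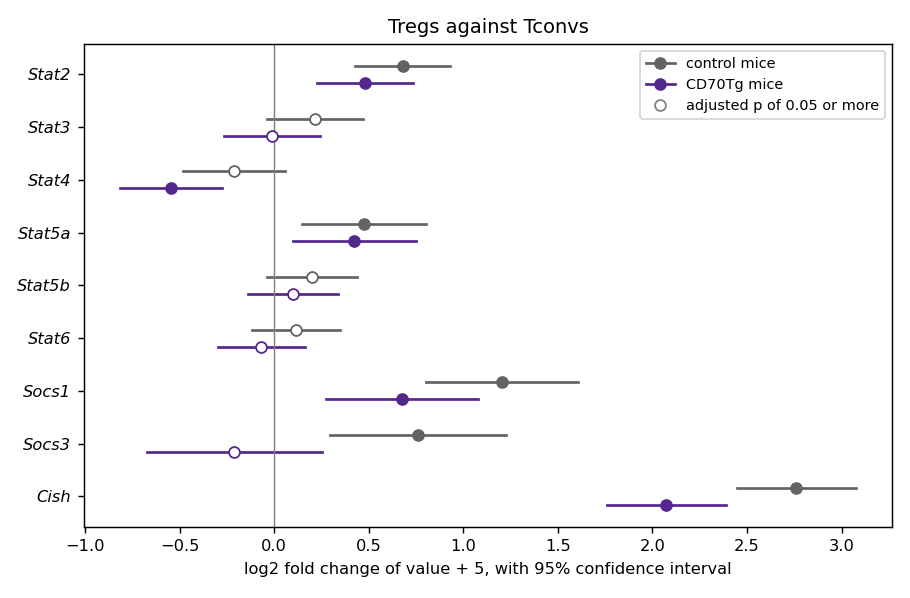
Log2 fold change of each member in Tregs against Tconvs, with 95% confidence intervals (lines), in control (grey) and CD70Tg mice (purple), open where the limma adjusted p was 0.05 or more. *Cish* lies at 2.76 and 2.07, beyond all other members, and *Stat4* at -0.54 in CD70Tg mice is the only member past the test on the side of Tconvs.

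The sum of the 3 feedback genes can be set against that of the 6 STAT genes within a library. It was 18.6% and 13.0% in control Tconvs and 23.2% and 29.6% in CD70Tg Tconvs, where the groups did not overlap. In Tregs it was 40.8% and 36.6% in controls and 37.8% and 45.3% in CD70Tg, where they did. The sum of the 6 STAT genes itself lay between 23235 and 30374 in all 8 libraries.

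Levels of different genes were compared per kb of exon, over the union of all annotated exons of a gene (GENCODE M21). In control Tconvs the order was *Stat6* (1260 per kb), *Stat5b* (1190), *Socs3* (778), *Stat4* (724), *Stat3* (683), *Socs1* (326), *Stat5a* (271), *Stat2* (247) and *Cish* (120). Neighbours overlapped in their libraries from *Stat6* to *Stat5b*, from *Socs3* to *Stat3* and from *Socs1* to *Stat2*. In CD70Tg Tconvs *Socs3* stood first at 1630 per kb, with libraries that overlapped those of *Stat6* at 1370, and *Cish* was still last at 212. In control Tregs *Cish* was at 817 per kb, overlapping *Stat3* at 791, and *Stat5a* was last at 371. In CD70Tg Tregs *Socs3* (1400), *Stat6* (1310) and *Stat5b* (1300) overlapped at the top, and *Stat3* (936), *Socs1* (892) and *Cish* (886) in the middle. The per-kb levels depend on the annotation, and the annotated exons of *Cish* fill 6.42 of the 6.76 kb of the gene.

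*Stat5a* and *Stat5b* encode near copies of one factor and lie side by side, *Stat5b* at chr11:100780731-100850724 and *Stat5a* at chr11:100859351-100885169 (GRCm38), 8.63 kb apart. *Stat5b* was the more abundant in every library, with raw value ratios of 2.63 to 3.97. Of the 50-base words in their transcripts, 8.21% of those of *Stat5a* and 11.0% of those of *Stat5b* occur in the other gene, so that some reads may have been dropped or split. *Stat3* follows at chr11:100885098-100939540 and shares 72 bases of exon with *Stat5a* on the opposite strand. *Stat2* (chr10:128270559-128292849) and *Stat6* (chr10:127642986-127660957) lie 609.6 kb apart, and *Stat2* rose in Tconvs while *Stat6* did not pass the test.

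Besides *Stat3* and *Stat5a*, *Stat4*, *Cish* and *Stat6* share exon bases with other gene models, *Stat6* 40 bases (0.909% of its exon length) with *Nab2* on the opposite strand. *Stat4* (chr1:51987148-52107189) shares 26.7% of its exon length with a noncoding model on the same strand, where reads can be ambiguous. *Cish* (chr9:107296026-107302784) shares 7.46% of its exon length with the antisense model *Gm17041* and 4.07% with *Gm17040*, and the strand setting of the counting is not given in the sources used here. The row of *Gm17041* was at 298 and 317 in control Tconvs, 450 and 647 in CD70Tg Tconvs and between 1747 and 2192 in Tregs, the same order of groups as *Cish*. In these shared stretches, reads of *Cish* and of the models cannot be told apart without the strand. *Socs1* (chr16:10782240-10785536) and *Socs3* (chr11:117966079-117970047) share no exon base with another gene.

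The 2 libraries of each Tconv group differed in depth, and the members were higher in the deeper one. All 9 members were higher in the deeper control Tconv library (19.4 M against 9.52 M reads), as were 67.9% of tested genes, and all 9 in the deeper CD70Tg Tconv library (33.1 M against 6.92 M), as were 73.9%. With median-of-ratios factors in place of the scaling to a fixed total, 7 and 5 of 9 were higher, against 47.4% and 50.5% of tested genes, and the 3 feedback genes were higher in the deeper library of both groups under either scaling. In Tregs 2 of 9 members were higher in the deeper control library and 5 of 9 in the deeper CD70Tg library, against 50.8% and 48.9% of tested genes. Of the feedback genes, 0 of 3 were higher in the deeper control Treg library and 3 of 3 in the deeper CD70Tg Treg library. The part of depth in the results was not tested. The same 5 members passed in Tconvs with median-of-ratios factors.

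**Figure D4:**
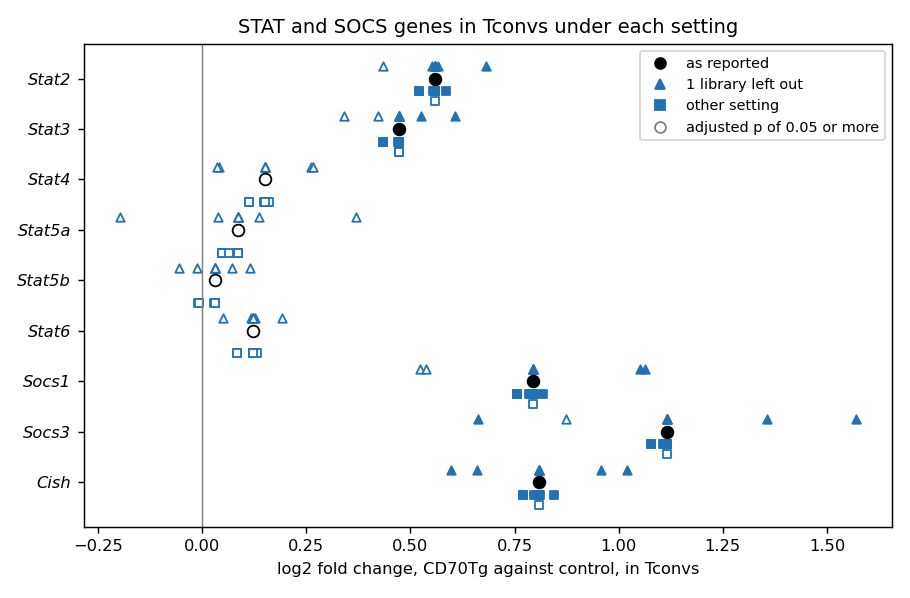
Log2 fold change of each member in CD70Tg against control Tconvs as reported (black), with 1 library left out (triangles) and under each other setting that gave a fold change (squares), open where the limma adjusted p was 0.05 or more. Open squares are set below the filled ones, and for the 5 members that rose they mark the fits with no filter or, for *Stat3*, also with the Tconv libraries alone. For *Socs3* the values run from 0.66 to 1.57 and for *Cish* from 0.60 to 1.02, while those of *Stat5a* and *Stat5b* lie on both sides of 0.

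The genes around the members were read from lists of kinases, receptors, cytokines and targets. Of the 4 JAK kinases, 2 rose in Tconvs and 0 in Tregs. *Jak3*, the kinase of the common gamma chain, was at 3895 and 2403 in control and at 4527 and 5858 in CD70Tg Tconvs (log2 fold change 0.75, SE 0.17, limma adjusted p = 0.0101). *Jak2*, which serves the IFN-γ and IL-12 receptors, was at 2622 and 2482 and at 3213 and 3463 (0.39, SE 0.11, limma adjusted p = 0.0377). *Tyk2*, which serves the IL-12 and type I interferon receptors, had a log2 fold change of 0.47 in Tconvs (limma adjusted p = 0.0509), and *Jak1* of 0.06. *Tyk2* passed there with limma-voom (0.0236), median-of-ratios (0.0398) and upper-quartile factors (0.0389). It also passed with a pseudocount of 20 (limma adjusted p = 0.0463) and with values above 10 required in every library (0.0490). The call of *Jak3* was lost without the second control or the second CD70Tg Tconv library (0.40, limma adjusted p = 0.170, and 0.56, limma adjusted p = 0.153), and that of *Jak2* without any library but the first CD70Tg Tconv library (limma adjusted p up to 0.197). In Tregs the log2 fold changes were 0.43 for *Jak3*, 0.08 for *Jak2*, 0.13 for *Tyk2* and -0.12 for *Jak1*. *Jak3* passed in Tregs without either control Tconv library (limma adjusted p = 0.0418 and 0.0414) and with the Treg libraries alone (0.00266).

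Of the other 5 SOCS genes, *Socs2* rose in Tconvs and none passed in Tregs. *Socs2*, a further STAT5 target, was low in Tconvs, at 74 and 86 in controls and at 110 and 170 in CD70Tg (log2 fold change 0.74, SE 0.22, limma adjusted p = 0.0431), and passed with 1 library left out only where that was the first CD70Tg Tconv library (limma adjusted p otherwise up to 0.338). In Tregs it was at 976 and 964 in controls and at 1578 and 1469 in CD70Tg (0.65, limma adjusted p = 0.0840). There it passed without either CD70Tg Tconv library (limma adjusted p = 0.0293 and 0.0317), with median-of-ratios and upper-quartile factors and with the Treg libraries alone (0.00129). It was higher in Tregs than in Tconvs, as *Cish* was, by 3.52 on the log2 scale in control mice (limma adjusted p = 3.08e-09). *Socs4*, *Socs5*, *Socs6* and *Socs7* had log2 fold changes between -0.20 and 0.29 in Tconvs and between -0.42 and 0.47 in Tregs. Of 9 other regulators, PIAS proteins, phosphatases and the adaptor *Sh2b3* (LNK), 0 passed in Tconvs by limma, 4 of them having an unadjusted p under 0.05, and *Sh2b3* alone passed in Tregs. There it fell by 0.51 on the log2 scale (limma adjusted p = 0.0254). The call was lost with no filter on low values, with limma-voom and in a fit with 1 library left out. In Tconvs *Sh2b3* fell by 0.42 (limma adjusted p = 0.0610) and passed with limma-voom (0.0181), median-of-ratios (0.0213) and upper-quartile factors (0.0218). *Ptpn6* passed there in the same settings, and *Pias3* with limma-voom (0.0202) and the Tconv libraries alone (0.0499). For *Sh2b3* the difference between the subsets did not pass (-0.10, limma adjusted p = 0.914).

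Receptor chains went both ways. Of 15, 4 rose and 4 fell in Tconvs, and 2 rose and 2 fell in Tregs. Over all tested genes 6.82% rose and 1.99% fell in Tconvs, and 3.94% rose and 3.46% fell in Tregs. In Tconvs the rises over 1 on the log2 scale were in *Il12rb1* (1.93, SE 0.20), the chain shared by the IL-12 and IL-23 receptors, *Il10ra* (1.63, SE 0.14), which signals through STAT3, *Il2rb* (1.05, SE 0.12), which signals through STAT5, and *Ifngr1* (1.04, SE 0.12), with limma adjusted p between 8.47e-07 and 2.36e-05. The Treg log2 fold changes were 0.66 for *Il12rb1* (limma adjusted p = 0.0566), 0.46 for *Il10ra* (0.0591) and 0.14 for *Il2rb* (0.571). There *Il12rb1* and *Il10ra* passed with median-of-ratios (0.0334 and 0.0281) and upper-quartile factors (0.0343 and 0.0302) and with the Treg libraries alone (0.000184 and 0.0112). In Tregs *Ifngr1* rose by 1.12 (limma adjusted p = 4.26e-05) and *Il6ra*, the IL-6 receptor, fell by 1.05 (limma adjusted p = 7.33e-05). *Il6ra* fell in Tconvs too, by 0.62 (limma adjusted p = 0.00350), as did *Il6st*, the gp130 chain that pairs with it, by 0.89 in Tregs and 0.60 in Tconvs (limma adjusted p = 0.00111 and 0.0129). *Il2rb* was at 6410 and 7075 in control Tconvs and at 13098 and 14868 in CD70Tg Tconvs, and lay between 30872 and 36340 in all Treg libraries. The 6 calls over 1 were kept whichever library was left out.

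**Figure D5:**
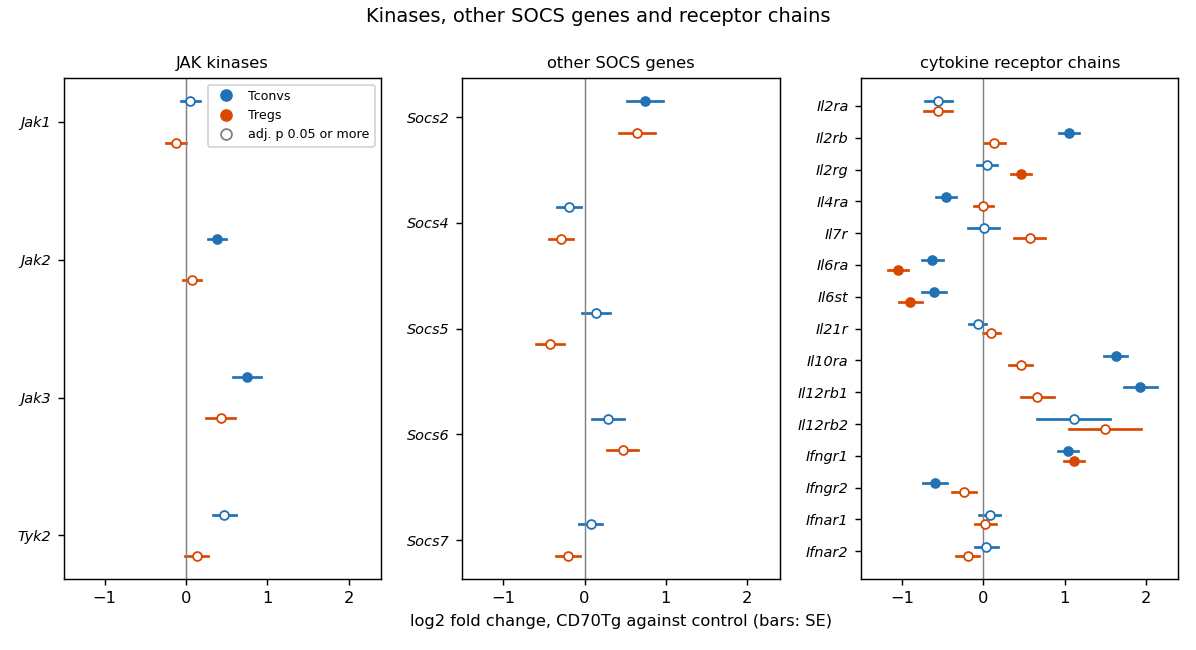
Log2 fold change in CD70Tg against control with SE (bars) for the 4 JAK kinases, the 5 other SOCS genes and 15 receptor chains, in Tconvs (blue) and Tregs (orange), open where the limma adjusted p was 0.05 or more. Of the kinases *Jak2* and *Jak3* are filled, in Tconvs, and the receptor chains spread from -1.05 for *Il6ra* in Tregs to 1.93 for *Il12rb1* in Tconvs.

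Of 8 cytokines that act through these factors, 5 could be tested. *Ifng* rose in both subsets, from 105 and 72 to 718 and 2111 in Tconvs and from 64 and 71 to 168 and 300 in Tregs (log2 fold changes 3.75, limma adjusted p = 6.91e-06, and 1.67, limma adjusted p = 0.0163). *Il10* rose in Tconvs, from 30 and 3 to 340 and 629 (log2 fold change 4.80, limma adjusted p = 3.64e-06), and was at 253 and 307 and at 512 and 691 in Tregs, without overlap. There it did not pass (log2 fold change 1.08, limma adjusted p = 0.199), but did without either control Tconv library (0.0306 and 0.0227) and with the Treg libraries alone (0.00257). The value of 3 lies below what 3 reads are worth in that library, and the *Il10* log2 fold change in Tconvs was 5.87 without the first control library and 3.74 without the second. That of *Ifng* was 4.52 without the first and 2.97 without the second CD70Tg Tconv library. Both passed in Tconvs whichever library was left out. The call of *Ifng* in Tregs was lost without either control Treg library (limma adjusted p = 0.108 and 0.0553) and without the second CD70Tg Treg library (0.151).

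Known targets of each STAT moved unevenly. Of 5 STAT4 targets tested, 3 rose in each subset, and among them *Il18rap* and *Il18r1*, the IL-18 receptor chains, rose in both (log2 1.79 and 1.27 in Tconvs, 1.48 and 1.33 in Tregs), *Furin* in Tconvs (1.29) and *Tbx21*, the Th1 factor T-bet, in Tregs (1.28), with limma adjusted p between 0.000109 and 0.0191. In Tconvs *Tbx21* had a log2 fold change of 0.97 (limma adjusted p = 0.0661), and passed with limma-voom (0.0338). It was at 819 and 635 in control and at 848 and 2368 in CD70Tg Tconvs. The log2 fold change was 1.71 without the first and 0.23 without the second CD70Tg Tconv library. The difference between the subsets did not pass for *Tbx21* (0.31, limma adjusted p = 0.874). *Il18rap* in Tconvs was at 2.48 on the log2 scale without the first and at 1.10 without the second CD70Tg Tconv library, and passed whichever library was left out. In Tregs *Tbx21* was lost without any 1 of the 4 Treg libraries (limma adjusted p between 0.0627 and 0.121), and *Il18rap* without the first control or the second CD70Tg library (0.115 and 0.0998). Of 10 targets of the STAT2 complex, 3 rose in Tconvs and 2 in Tregs. The Treg calls, *Oas1a* and *Oasl2*, were both lost with no filter on low values (limma adjusted p = 0.192 and 0.171) and with limma-voom (0.2325 and 0.316). Those over 1 were *Oasl2* (1.06) and *Mx1* (1.03), both antiviral genes, in Tconvs (limma adjusted p = 0.00975 and 0.0415). Both of these were lost without the second control or the second CD70Tg Tconv library, and *Mx1* also without the first control (limma adjusted p between 0.121 and 0.330). Of 6 STAT3 targets 3 rose in Tconvs, *Bcl3*, *Junb* and *Batf*, and 0 in Tregs. Each of these calls was lost without the second control and without the second CD70Tg Tconv library, and that of *Bcl3* also without either CD70Tg Treg library. The log2 fold changes fell to 0.30 for *Bcl3*, 0.36 for *Junb* and 0.55 for *Batf*. *Bcl3* was lost too with median-of-ratios (limma adjusted p = 0.0643) and upper-quartile factors (0.0671), a pseudocount of 1 (0.0600) and clone-derived names kept (0.0537). The same held with the Tconv libraries alone (0.0609) and with limma-voom (0.0504). In Tregs the log2 fold changes of *Bcl3*, *Junb* and *Batf* were 0.65, 0.61 and 0.43 (limma adjusted p between 0.163 and 0.174). There *Bcl3* passed without either control Tconv library (0.0208 and 0.0198), *Junb* without either CD70Tg Tconv library (0.00428 and 0.00436) and all 3 with the Treg libraries alone, and the difference between the subsets passed for none of them (limma adjusted p between 0.599 and 0.878). *Junb* was at 4674 and 4269 in control and at 5720 and 13468 in CD70Tg Tconvs. Of 7 STAT5 targets 3 rose and 1 fell in Tconvs, and 1 rose and 1 fell in Tregs. Of 5 STAT6 targets 1 rose and 1 fell in Tconvs and 0 passed in Tregs, the one that rose being *Ccr8*, a chemokine receptor (log2 1.07, limma adjusted p = 0.00236). In Tregs *Ccr8* had a log2 fold change of 0.64 (limma adjusted p = 0.0695). It passed there with median-of-ratios (0.0342) and upper-quartile factors (0.0350) and with the Treg libraries alone (0.000765). Its difference between the subsets did not pass (-0.43, limma adjusted p = 0.669). The counts of targets are read against the shares of all tested genes given with the receptor chains.

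Many of the calls in these lists depended on the filter. With no filter on low values the Tconv calls of *Jak2*, *Jak3*, *Socs2*, *Il6ra*, *Il6st*, *Il4ra*, *Ifngr2*, *Il18rap*, *Furin*, *Oasl2*, *Mx1*, *Ifit3*, *Bcl3*, *Junb*, *Batf*, *Bcl2*, *Pim2* and *Ccnd2* were lost (limma adjusted p between 0.0639 and 0.446). In Tregs those of *Ifng*, *Il18rap*, *Tbx21*, *Sh2b3*, *Il6st*, *Il2rg*, *Oas1a* and *Oasl2* were lost (between 0.0564 and 0.192). In Tregs *Ifng*, *Il18rap*, *Tbx21*, *Sh2b3*, *Il2rg*, *Oas1a* and *Oasl2* were lost with limma-voom too (adjusted p between 0.0593 and 0.545).

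For the 5 members that rose in Tconvs, the tested genes with the most similar pattern over the 8 libraries were looked up by Pearson's r of log2(value + 5). They were *Tk1* (0.996), *Fgl2* (0.996) and *Kif13b* (0.995) for *Stat2*, *Etv6* (0.993), *Map2* (0.977) and *Phlpp2* (0.974) for *Stat3*, and *Stx11* (0.989), *Cnrip1* (0.987) and *Cd101* (0.986) for *Socs1*. For *Socs3* they were *Ncapd2* (0.991), *Phlda3* (0.959) and *Lag3* (0.958), and for *Cish* *Nfkbiz* (0.998), *Mtmr3* (0.998) and *Cep192* (0.996). The 8 points share their libraries, depths and groups, and r is given as a description. *Nfkbiz*, which encodes an NF-κB regulator, was at 210 to 425 in Tconvs and at 1353 to 1458 in Tregs, as *Cish* was low and high. *Lag3*, an inhibitory receptor, was at 239 and 1331 in control and at 5818 and 8013 in CD70Tg Tconvs, and between 1826 and 4453 in Tregs.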

How the data were processed

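Tregs and Tconvs of CD27+/- control and CD70Tg mice were measured by RNA sequencing, in 8 libraries. The authors trimmed reads with Trimmomatic 0.36, mapped them to mm10 with STAR 2.5.3 and counted them per gene with HTSeq 0.9.1. The deposited score values are these counts scaled to a library total of 20 M, with fractions rounded up. The columns name the control groups KO and the sample labels WT, which was taken to mean the CD27+/- mice without the transgene, and libraries are numbered in table order. From the 52636 rows, 4131 with clone-derived names were left out. The 12816 genes that reached 60 in 2 or more libraries were fitted on log2(value + 5) with limma 3.58.1 (R 4.3.3, with eBayes and a trend), using 1 coefficient per group over all 8 libraries. Benjamini-Hochberg adjustment was made within each of 5 comparisons. A gene passed at an adjusted p under 0.05. The scripts were tested on simulated data. Depth was recovered from the steps between low values, and 3 reads were worth between 1.80 and 31.2. Precision is limited by the 2 libraries per group. Named genes were the members, all JAK and SOCS genes, pathway list genes past the test with an absolute log2 fold change over 1 in CD70Tg against control, *Foxp3*, *Cd4*, *Cd27* and *Cd70* as checks, and the 3 tested genes most similar to each member that passed, leaving out predicted genes. *Bcl2*, *Bcl3*, *Junb*, *Batf*, *Sh2b3* and *Il6st*, and genes that overlap members, fall outside this rule and were named after their values were seen. So were the named NK cell markers and the list genes named only for calls that changed with the setting. The members and lists were chosen with earlier results of these data known. Some genes of the family are not reported here. Alternatives were other pseudocounts, filters, factors and models, and leaving out each library.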

Additional observations from a re-analysis of the deposited data

Results flagged for a closer look

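The test of the difference in CD70Tg response between Tregs and Tconvs was passed by 5 of 68 tested genes of the lists of kinases, receptors, cytokines, targets and other regulators, by 0 of the 9 members and by 1.02% of all tested genes. All 5 had the lower response in Tregs. The Treg log2 fold changes were 1.08 for *Il10*, 0.14 for *Il2rb*, 0.46 for *Il10ra*, 0.66 for *Il12rb1* and -0.97 for *Bcl2*. The differences on the log2 scale were -3.72 for *Il10* (limma adjusted p = 0.0110), -0.91 for *Il2rb* (limma adjusted p = 0.0157), -1.17 for *Il10ra* (limma adjusted p = 0.00772), -1.27 for *Il12rb1* (limma adjusted p = 0.0411) and -1.44 for *Bcl2* (limma adjusted p = 0.000258). *Bcl2*, a survival gene and STAT5 target, went opposite ways, from 2512 and 2480 to 3492 and 3445 in Tconvs and from 3839 and 3359 to 1808 and 1865 in Tregs. Its rise in Tconvs (log2 0.47, limma adjusted p = 0.0123) was lost with no filter on low values (0.0639) and with the Tconv libraries alone (0.0525). The *Il10* difference was -4.79 without the first and -2.66 without the second control Tconv library. With no filter on low values all 5 were lost (limma adjusted p = 0.0649 for *Bcl2* and between 0.225 and 0.370 for the others), and with limma-voom *Il10* (0.0763) and *Il12rb1* (0.148). With median-of-ratios and upper-quartile factors *Il2rb* (0.109 and 0.0971) and *Il12rb1* (0.0578 and 0.0560) were lost, and *Il12rb1* also with a pseudocount of 1 (0.0569). With 1 library left out the *Bcl2* difference passed each time (limma adjusted p up to 0.00492). The others did not, with limma adjusted p up to 0.0800 for *Il10* (lost without the second CD70Tg Tconv or the first CD70Tg Treg library), 0.0962 for *Il2rb* (without the first control Treg or either CD70Tg Treg library), 0.0519 for *Il10ra* (without the second control or the second CD70Tg Treg library) and 0.130 for *Il12rb1* (without the second library of either Tconv group or any Treg library). With 2 libraries per group, no single library could be tested as standing apart from its group.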

How the results depend on the processing

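Of the 45 member values (9 members in 5 comparisons), those past the test kept their direction under every alternative run, and stayed past it in 243 of 270 refits. In Tregs the count of members past the test went from 0 to 1 (*Stat2*) with median-of-ratios factors, upper-quartile factors and the Treg libraries alone. With no filter on low values it fell from 5 to 0 in Tconvs and from 5 to 3 in each comparison of Tregs with Tconvs, where all rows enter the fit and its adjustment. It went from 5 to 4 in Tconvs with the Tconv libraries alone (without *Stat3*), from 5 to 6 between the subsets in controls with median-of-ratios factors (with *Stat4*) and from 5 to 4 in CD70Tg with limma-voom (without *Stat5a*). With a log2 fold change over 1 required as well, 1 of 5 was left in Tconvs (*Socs3*), 2 of 5 between the subsets in controls and 1 of 5 in CD70Tg. With 1 library left out, the count ran from 0 to 1 in Tregs, from 1 to 5 in Tconvs (1, *Cish*, without the second CD70Tg library), from 0 to 1 for the difference, and from 3 to 5 in both comparisons of the subsets. Values not past the test changed sign. With median-of-ratios and upper-quartile factors *Stat5b* in Tconvs was -0.0087 and -0.0086 and the difference for *Stat5a* 0.030 and 0.024, and with upper-quartile factors *Stat3* between the subsets in CD70Tg mice was 0.023. With 1 library left out, *Stat5a* ran from -0.056 to 0.13 in Tregs, from -0.20 to 0.37 in Tconvs and from -0.33 to 0.23 for the difference, *Stat5b* in Tconvs from -0.056 to 0.12, and *Socs3* in Tregs from -0.041 to 0.33. Between the subsets in CD70Tg mice *Stat3* ran from -0.064 to 0.039, *Stat6* from -0.14 to 0.0025 and *Socs3* from -0.45 to 0.031. The cause of these changes was not tested.

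Genes past the test numbered 948 in Tregs (257 to 1615 over the alternatives), 1129 in Tconvs (365 to 2001), 131 for the difference (0, with no filter, to 269) and 5875 between the subsets in controls (3700 to 6473). No paired analysis was possible because column names and sample titles have no replicate number in common. Depth was lowest in Tregs, and member values there rest on at least 194 reads.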
